A study of Mus musculus with 12 samples.

Results

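The interferon-inducible GTPases of mouse regulatory T cells (Treg) were described here as 10 genes of the 41457 in each table: the 6 immunity-related GTPases Tgtp1, Tgtp2, Irgm1, Irgm2, Igtp and Iigp1, and the 4 guanylate-binding proteins Gbp2, Gbp3, Gbp4 and Gbp7. They were chosen by gene name, and the choice was made from a measured value: Tgtp1 had passed the threshold when the genotypes were compared in unstimulated Treg, and the others belong to the same families. All 10 genes passed the filter on low counts in every comparison. The cells were splenic RFP+CD4+ Treg cultured overnight, in 4 groups of 3 libraries each. CD18wt Treg came from littermates with wild-type CD18 alleles, and CD18Foxp3 Treg from mice in which floxed CD18 (gene Itgb2, the beta chain shared by the beta2 integrins) was deleted by a Cre recombinase expressed under Foxp3. The controls carried the same Foxp3Cre allele and the RFP reporter in the Gt(ROSA)26Sor locus. The recombinase is driven by Foxp3, so the deletion is confined to cells that express or have expressed it, and the sort took reporter-positive cells. Mice were matched for age and sex, and their age is not given in the sources used here. Unstimulated cells had received 5 U/ml IL-2, and stimulated cells the same IL-2 with 1 µg/ml anti-CD3 and 2 µg/ml anti-CD28.

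Immunity-related GTPases and guanylate-binding proteins are made in large amounts after interferon-γ, and some also after type I interferon. The effector proteins (Tgtp1, Tgtp2, Iigp1 and the guanylate-binding proteins) load onto the membrane of vacuoles that hold intracellular parasites and bacteria and help to break it, whereas the regulatory proteins Irgm1, Irgm2 and Igtp sit on the cell's own membranes and keep the effectors off them. The ATG8 conjugation machinery of autophagy helps to direct both families to their targets. Interferon-γ reaches these genes through its receptor, the kinases JAK1 and JAK2 and transcription factors such as IRF1; GAS elements (TTCNNNGAA) take part in this response, and IRF proteins bind the GAAA repeats of interferon-stimulated response elements.

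The sequence just upstream of the genes shows how alike the members are where these factors are known to bind, so the stretch around the paired GAAA half-sites is printed for 8 members, all but Gbp4 and Iigp1. Windows ran from 250 bases before to 50 bases after the annotated start (RefSeq, GRCm38.p6), and were searched on both strands for GAAANNGAAA and for TTCNNNGAA, which reads the same on either strand. Capitals mark matches; TTTC repeats are the GAAA pair on the other strand. All sequences run 5′ to 3′ along the gene.
Tgtp1 (chr11:48992289-48992348, minus strand): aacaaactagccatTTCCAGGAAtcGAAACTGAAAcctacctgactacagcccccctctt
Tgtp2 (chr11:49064248-49064307, minus strand): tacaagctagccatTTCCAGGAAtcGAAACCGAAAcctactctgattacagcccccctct
Igtp (chr11:58199497-58199556, plus strand): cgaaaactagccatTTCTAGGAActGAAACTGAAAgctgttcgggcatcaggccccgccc
Irgm2 (chr11:58214888-58214947, plus strand): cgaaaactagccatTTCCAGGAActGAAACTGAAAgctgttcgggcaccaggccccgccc
Irgm1 (chr11:48871410-48871475, minus strand): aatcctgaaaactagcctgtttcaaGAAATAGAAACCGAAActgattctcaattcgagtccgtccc
Gbp2 (chr3:142620579-142620638, plus strand): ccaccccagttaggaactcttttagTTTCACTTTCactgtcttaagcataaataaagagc
Gbp3 (chr3:142559974-142560039, plus strand): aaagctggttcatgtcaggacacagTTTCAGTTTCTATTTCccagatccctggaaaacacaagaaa
Gbp7 (chr3:142530258-142530317, plus strand): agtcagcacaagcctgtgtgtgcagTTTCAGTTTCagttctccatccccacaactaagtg
The 8 members searched held the GAAA pair in 8 of their 9 windows (a second window of Gbp3 had none), and the pair was present in 3.44% of the 32851 windows, and 5 held TTCNNNGAA, present in 8.3%. In Tgtp1, Tgtp2, Igtp and Irgm2 the TTCNNNGAA stood 2 bases before the GAAA pair, which the 4 genes share in the same order and on the gene's own strand. This arrangement, noticed after the sequences were seen, was found in 5 of the 32851 windows (0.0152%); the fifth belonged to Gm12185, a gene of the same family beside Tgtp1. The pair began 77 bases before the start in Tgtp1, 70 in Tgtp2, 34 in Igtp and 64 in Irgm2. Irgm1, Gbp2 and Gbp3 held GAAA pairs without TTCNNNGAA, and in Gbp7 the motifs lay farther apart, at 106, 87 and 53 bases before the start. Over the 300 bases, Igtp and Irgm2 were identical in 72.8% of aligned columns, Tgtp1 and Tgtp2 in 66.8% and Tgtp1 and Igtp in 47%. A match of letters describes the window and does not show that a factor was bound.

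The number of exon reads per library, that is the depth, lay between 10665174 and 19005482, and CD18wt unstimulated replicate 3 was the shallowest. Itgb2 was lower in CD18Foxp3 Treg at 229 to 257 TPM (transcript level per length and library) against 387 to 465 TPM in CD18wt Treg before stimulation, and at 131 to 202 TPM against 329 to 331 TPM after it. These levels count reads over all exons of the gene, whereas the paper states that Cre removes a single exon. They therefore do not measure how complete the deletion was. By flow cytometry the paper reported loss of CD18 and CD11a on FOXP3+ cells. After stimulation Itgb2 was itself not called (log2 fold change -0.94 ± 0.17, adjusted p = 0.22 in edgeR's quasi-likelihood test), although its groups did not overlap. The Treg marker Foxp3 was at 73.4 to 207.5 TPM in the 12 libraries. Of 6 Treg and T cell markers none was called between the genotypes, before or after stimulation. Of all genes tested 0.0507% were called higher and 0.0845% lower before stimulation, and 0% after it. In TPM, Il2ra did not overlap between the unstimulated genotypes (133.5 to 170.2 in CD18wt and 107 to 133.4 in CD18Foxp3 Treg), but in CPM it did. After stimulation Il2ra and Ikzf2 were wholly higher and Cd4 wholly lower in CD18Foxp3 libraries, in TPM and in CPM. In CPM, 5.01% of all genes tested were wholly higher there. The share wholly lower and the shares in TPM are not given here. The labels call the replicates biological and the study describes them as individual mice. Whether unstimulated and stimulated libraries came from the same mice is not stated in the sources used here. The names of the deposited tables repeat an identifier between the unstimulated and stimulated libraries of a number. The stimulation tests did not pair the libraries, and the replicate number as a block was an alternative. In bulk RNA, fewer cells with a transcript and less of it per cell cannot be told apart.

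Tgtp1 (ENSMUSG00000078922, chr11:48985327-48994172, minus strand, GRCm38) and Tgtp2 (ENSMUSG00000078921, chr11:49057194-49064206, minus strand) are near-identical copies on chromosome 11, and most of their reads could have come from either. The deposited tables give each gene a total exon count and the part of it that was placed at a single site. Over all libraries 14.1% of the reads of Tgtp1 and 17.8% of those of Tgtp2 were uniquely placed, while Irgm1, Gbp2, Iigp1 and Gbp7 had 97.6% to 100%, Gbp3 95.3%, Irgm2 94.5%, Gbp4 90.4% and Igtp 88.9%. When the annotated transcripts (GENCODE M21) were cut into all stretches of 59 bases, the read length, 77.7% of the 3122 from Tgtp1 also occurred in Tgtp2, and 84.2% of the 2880 from Tgtp2 also occurred in Tgtp1. Gm12185, whose annotated region overlaps Tgtp1, shared 5.28% of the stretches of Tgtp1. Igtp and Irgm2 also overlap on chromosome 11 (chr11:58199556-58207591 and chr11:58199618-58222782, plus strand), and 10.2% of the stretches of Igtp occurred in Irgm2. For the other members the share found in any further gene ran from 0.224% (Irgm1) to 12.1% (Gbp7). The values of Tgtp1 and Tgtp2 are therefore given singly, from uniquely placed reads, and as a sum.

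In unstimulated Treg, Tgtp1 was at 116, 124 and 105 CPM (normalized read count scaled to library size with TMM factors) in the 3 CD18wt libraries and at 189, 174 and 183 CPM in the 3 CD18Foxp3 libraries. Every CD18Foxp3 library was above every CD18wt library. The total exon reads behind these values were 1864, 2155 and 1004 against 3366, 2484 and 2975, of which 255, 313 and 117 against 516, 369 and 414 were uniquely placed. The fitted log2 fold change was 0.66 ± 0.089 (SE), that is 1.58-fold, in a comparison in which 0.0507% of 11829 genes were called higher and 0.0845% lower at the study's threshold (1.5-fold or more, adjusted p no higher than 0.01). This comparison singled out Tgtp1, so its value and those of its relatives are a description without a test. Tgtp1 was the only member past the threshold; next to it on the other side stood Irgm1 at 0.49 ± 0.094 and Tgtp2 at 0.48 ± 0.098. Over the 6 fits that each left out 1 library the log2 fold change of Tgtp1 lay between 0.60 and 0.72. It passed the p threshold there only without CD18wt unstimulated replicate 3 (0.60), and not without any of the other 5 libraries; nor did it pass with uniquely placed reads, on TPM or with all 12 libraries in 1 fit.

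The remaining members stood on the same side of zero. Among the regulatory GTPases, Irgm1 was at 98.7, 122 and 115 CPM in CD18wt Treg and at 156, 164 and 153.5 CPM in CD18Foxp3 Treg. Igtp, the most abundant member, was at 245.5, 288 and 319 CPM against 369.7, 362 and 445 CPM, with a log2 fold change of 0.47 ± 0.11. Irgm2 was at 53.8, 66.7 and 73.9 CPM against 80.3, 79.8 and 92.2 CPM, with 0.38 ± 0.12. In these 3 genes the genotypes did not overlap. Among the effectors, Tgtp2 was at 180.5, 185 and 204 CPM against 260.4, 236 and 299.9 CPM. Iigp1, which attacks the vacuole membrane, was at 83.4, 97.7 and 95.9 CPM against 119.7, 119 and 145 CPM, with 0.47 ± 0.11. The groups were apart for these effectors too. The guanylate-binding proteins, large GTPases that assemble on membranes, had smaller values: Gbp2 0.36 ± 0.086, Gbp4 0.34 ± 0.097, Gbp7 0.29 ± 0.12 and Gbp3 0.23 ± 0.088. Gbp7 was the exception to separation, with 157 to 224 CPM in CD18wt Treg and 219 to 252 CPM in CD18Foxp3 Treg. Over the 10 members the log2 fold changes were all positive, from 0.23 to 0.66 with a median of 0.42, where the median of all genes tested was -0.0044, and 9 of the 10 had CD18Foxp3 libraries wholly above the CD18wt libraries, as did 8.32% of all genes tested. Because the contrast chose the family, these counts support nothing further.

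**Figure D1:**
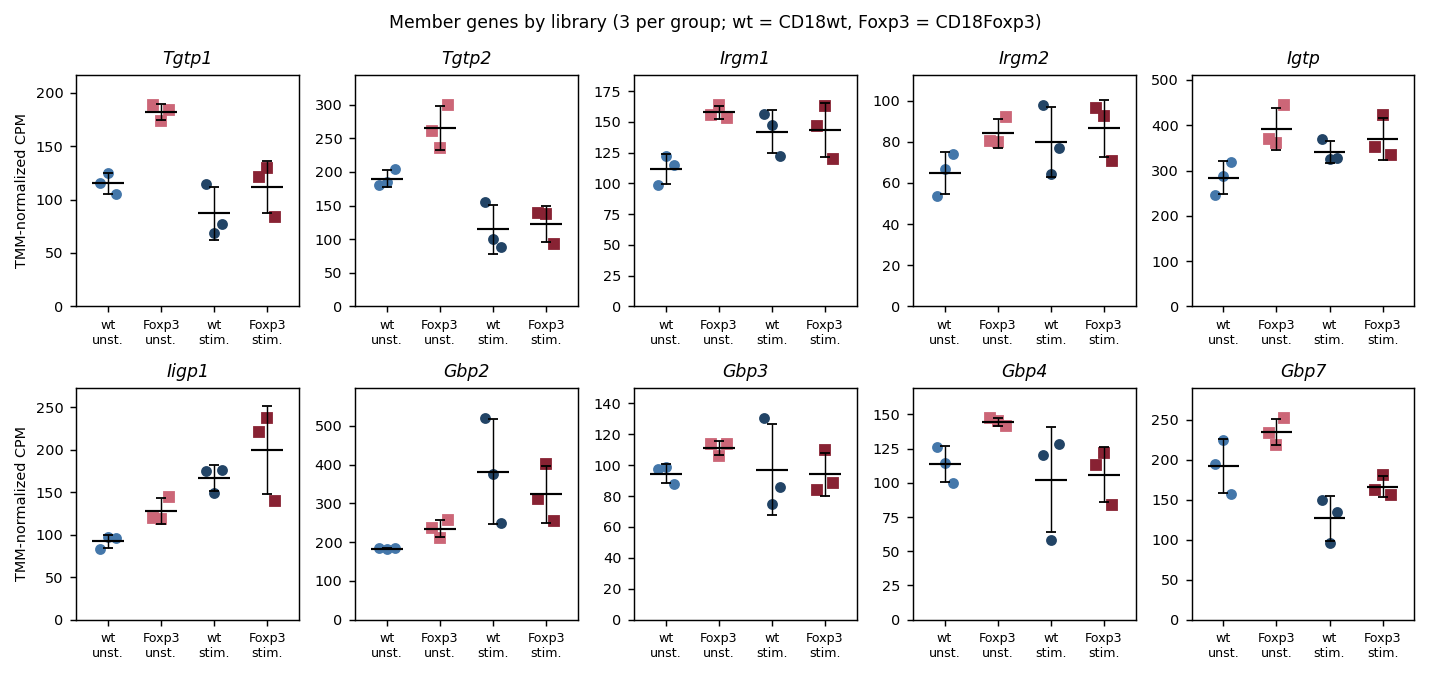
TMM-normalized CPM (vertical axes, from 0) of the 10 member genes in each library; circles are CD18wt and squares CD18Foxp3, unstimulated (unst.) or stimulated (stim.), with lines and bars for mean and SD of 3 libraries. In the unstimulated groups the squares stand above the circles for every member except Gbp7, whose ranges of 157 to 224 and 219 to 252 CPM overlap; in the stimulated groups they interleave for every member except Gbp7.

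After stimulation no member differed between the genotypes past the threshold, which the deleted gene Itgb2 did not reach either. Tgtp1 was at 115, 68.9 and 77.4 CPM in the stimulated CD18wt libraries and at 121, 129.5 and 83.7 CPM in the stimulated CD18Foxp3 libraries. The third CD18Foxp3 library lay within the CD18wt range. The log2 fold change was 0.36 ± 0.22 with an adjusted p of 0.998 in edgeR's quasi-likelihood test, which was also the adjusted p of each other member. Gbp7 had the largest value, 0.40 ± 0.18, from 150.2, 95.7 and 134 CPM in CD18wt Treg to 162.5, 181 and 156 CPM in CD18Foxp3 Treg. It was the sole member whose stimulated groups did not overlap, which held for 5.01% of the 11930 genes tested in that direction; its TPM overlapped. Iigp1 had 0.26 ± 0.20, with 175, 149 and 176 CPM against 221, 237 and 140 CPM, so its lowest library was a CD18Foxp3 library. Gbp2 went the other way at -0.23 ± 0.25, with 520, 375 and 249 CPM against 312, 403 and 256 CPM. The remaining 6 members lay between -0.04 (Gbp3) and 0.12 (Irgm2 and Igtp) with standard errors of 0.15 to 0.27. The count of members called was 0 higher and 0 lower, and the share of all genes called was 0% in either direction, with 583 genes at an unadjusted p under 0.05; DESeq2 called 17 genes higher and 5 lower and edgeR's likelihood ratio test 11 and 5, and without the filter edgeR's quasi-likelihood test called 39 and 22, none of them members. Exact two-sided permutation tests on log2(TPM + 1) gave p = 0.2 for Tgtp1 and Gbp7 and 0.5 to 1 for the other 8 members, where 3 against 3 libraries cannot go below 0.1.

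The spread between stimulated libraries was wide and ran in the same libraries across members. In stimulated CD18wt Treg replicate 1 was the highest library for 8 of the 10 members and replicate 2 the lowest for 7. In stimulated CD18Foxp3 Treg replicate 2 was the highest for 8 and replicate 3 the lowest for 9. Gbp4, for instance, was at 120.2, 58 and 128 CPM in stimulated CD18wt Treg, and at 100.2 to 126 CPM in unstimulated CD18wt Treg. Leaving out CD18wt stimulated replicate 1, the genotype difference of Gbp2 was 0.062 and that of Gbp3 0.24, and leaving out CD18wt stimulated replicate 2, that of Gbp4 was -0.23.

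Stimulation of CD18wt Treg raised 2 of the members, Gbp2 and Iigp1, past the threshold. Tgtp2 stood past it as lower, and 7 were not past it. The stimulation comparisons use the unstimulated libraries on which Tgtp1 was chosen, and Tgtp2 shares most of its reads with Tgtp1. The values of Tgtp1, of Tgtp2 and of their sum are therefore given without a test. Gbp2, a guanylate-binding protein that coats parasite vacuoles, rose from 184, 182 and 185 CPM to 520, 375 and 249 CPM, with a log2 fold change of 1.05 ± 0.22 and an adjusted p of 0.0021 in edgeR's quasi-likelihood test. Iigp1 (ENSMUSG00000054072, on chromosome 18) rose from 83.4, 97.7 and 95.9 CPM to 175, 149 and 176 CPM, with 0.85 ± 0.13 and an adjusted p of 0.00016. Tgtp2 went from 180.5, 185 and 204 CPM to 155.6, 99.9 and 87.8 CPM, with -0.73 ± 0.19. In all 3 the CPM of stimulated and unstimulated libraries did not overlap. In TPM Tgtp2 overlapped, at 156 to 163 before and 103 to 178.5 after stimulation, and it was not past the threshold on log2(TPM + 1) (-0.37). The 2 of 10 members called higher and the 1 past the threshold as lower stand beside 18.7% and 14.9% of the 11930 genes tested. Gbp7 had -0.60 ± 0.18 (adjusted p = 0.014) and Tgtp1 -0.41 ± 0.18, and in Tgtp1 replicate 1 of the stimulated libraries, at 115 CPM, lay within the unstimulated range. Irgm1 had 0.34 ± 0.14, Irgm2 0.30 ± 0.17 and Igtp 0.26 ± 0.14, and Gbp3 and Gbp4 were at 0.03 and -0.16; none of these was called.

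In CD18wt Treg the call of Iigp1 was made in each of the 6 fits that left out 1 library, and that of Gbp2 was not. Gbp2 was not called without unstimulated replicate 1, 2 or 3 or stimulated replicate 2 (adjusted p of 0.011, 0.0105, 0.016 and 0.014 by the same edgeR test), although its log2 fold change stayed between 1.03 and 1.06 there. Tgtp2, which has no test here, was past the threshold only in the fit without stimulated replicate 1. The other 5 fits gave log2 fold changes of -0.59 to -0.77. Without stimulated replicate 1, Tgtp1 was at -0.67 and Gbp7 was called (-0.76, adjusted p = 0.0087), which was also called without unstimulated replicate 3 (-0.73, adjusted p = 0.0063).

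In CD18Foxp3 Treg Tgtp1 and Tgtp2 were lower after stimulation. The baseline here is the unstimulated CD18Foxp3 libraries, whose high Tgtp1 led to the choice of the members, so the values of this pair of copies are a description without a test. Tgtp1 went from 189, 174 and 183 CPM to 121, 129.5 and 83.7 CPM, with a log2 fold change of -0.70 ± 0.16. Tgtp2 went from 260.4, 236 and 299.9 CPM to 139, 138 and 92.3 CPM, with -1.10 ± 0.18. Stimulated libraries lay below all unstimulated ones in CPM for either gene. In TPM this held for Tgtp2 and not for Tgtp1, which was at 134.5 to 149 before and 84.5 to 135 after stimulation, a log2 fold change of -0.36 on log2(TPM + 1) that did not pass the threshold. No member was called higher and 2 of 10, Tgtp1 and Tgtp2, stood past the threshold as lower, beside 20.9% and 17.6% of the 12019 genes tested. Gbp7 had an adjusted p of 0.0045 in edgeR's quasi-likelihood test but its log2 fold change of -0.49 ± 0.11 was less than 1.5-fold. Iigp1 (0.65 ± 0.20, adjusted p = 0.019) and Gbp2 (0.46 ± 0.17, adjusted p = 0.040) missed the p threshold, and in each of them the third stimulated library, at 140 and 256 CPM, lay within the unstimulated range. Gbp4 had -0.44 ± 0.15, Gbp3 -0.24 ± 0.12 and Irgm1, Igtp and Irgm2 between -0.14 and 0.05. Without stimulated replicate 3, Iigp1 (0.84, adjusted p = 0.00073) and Gbp2 (0.60, adjusted p = 0.0068) were called higher, and Tgtp1 fell short of 1.5-fold at -0.54. Without unstimulated replicate 1, 2 or 3 the log2 fold change of Tgtp1 was -0.68, -0.74 and -0.70, and it was not past the threshold.

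**Figure D2:**
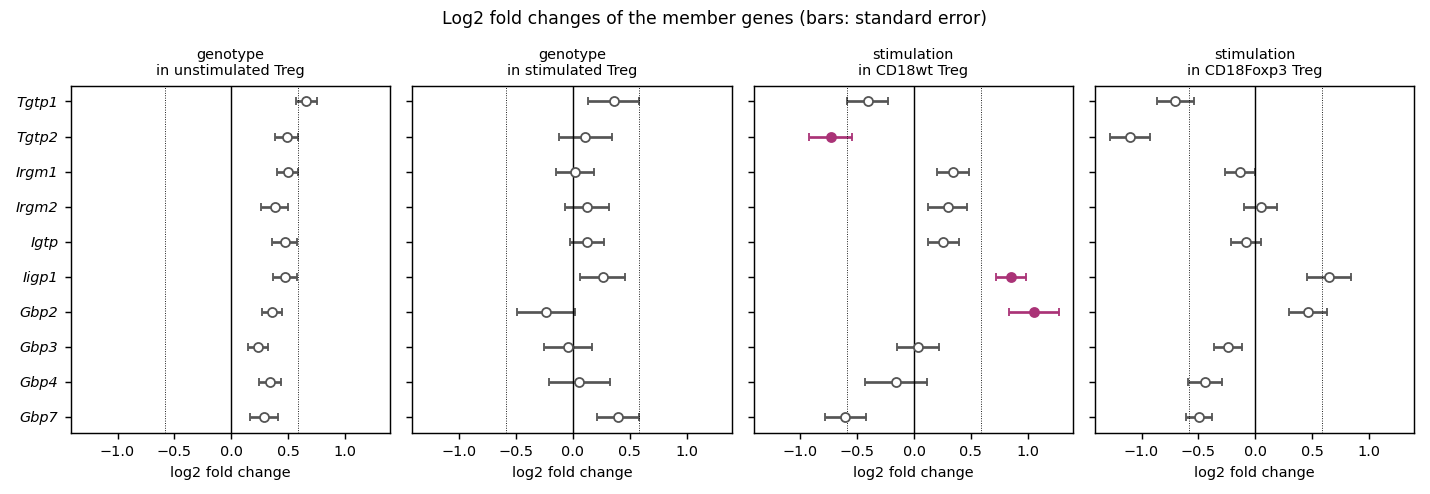
Log2 fold change (horizontal axis, bars are standard errors) of each member in the 4 comparisons; filled points were called at 1.5-fold (dotted lines) and an adjusted p of at most 0.01, and no calls are shown in the leftmost panel, whose contrast chose the members, or for Tgtp1 and Tgtp2 in the rightmost, which starts from the same CD18Foxp3 libraries. The points of the unstimulated genotype comparison run from 0.23 to 0.66, and filled points stand for Tgtp2, Gbp2 and Iigp1 on stimulation of CD18wt Treg. That of Tgtp2 marks a value past the threshold and is not a test, because Tgtp2 shares most of its reads with Tgtp1.

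The response to stimulation differed between the genotypes by -0.30 ± 0.26 for Tgtp1 and -0.38 ± 0.28 for Tgtp2 (CD18Foxp3 minus CD18wt, log2 with SE). Gbp2 had the largest difference, -0.60 ± 0.30, followed by Irgm1 with -0.48 ± 0.19, and Gbp7 was the one member on the other side, at 0.10 ± 0.23. These differences contain the unstimulated genotype comparison that chose the members, and the 4 comparisons share libraries, so they were given without a test. That Tgtp1 stood past the threshold on stimulation in CD18Foxp3 and not in CD18wt Treg does not show that its response differed.

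Counting the near-identical pair in other ways kept the genotype order in unstimulated Treg. The sum of Tgtp1 and Tgtp2 was at 296, 309 and 309 CPM in CD18wt and at 449, 409 and 483 CPM in CD18Foxp3 Treg, a log2 fold change of 0.55 ± 0.087, which is below 1.5-fold. From uniquely placed reads it was 0.79 ± 0.16 for Tgtp1, 0.67 ± 0.11 for Tgtp2 and 0.71 ± 0.11 for the sum. The unique fits gave larger values than the total reads for each. On stimulation the sum had -0.60 ± 0.18 in CD18wt Treg and -0.93 ± 0.17 in CD18Foxp3 Treg, and from unique reads -0.43 ± 0.19 and -1.03 ± 0.17. Tgtp2 in CD18wt Treg was not past the threshold with unique reads (-0.49 ± 0.22). Between the genotypes after stimulation the sum had 0.22 ± 0.23 from total and 0.11 ± 0.23 from unique reads.

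Tgtp1 received 34% to 42.4% of the summed total reads in the unstimulated libraries and 40.8% to 48.4% in the stimulated ones. Its share of the uniquely placed reads was lower in each of the 12 libraries, from 30.9% to 42.6%. In stimulated CD18Foxp3 Treg the total share was 46.5%, 48.4% and 47.6%, above the 42%, 42.4% and 38% of the unstimulated cells, and the unique share was 39.2%, 41.2% and 42.6%, above 37%, 36.5% and 33.2%. In CD18wt Treg the total share was 42.5%, 40.8% and 46.9% after stimulation, above the 39%, 40.2% and 34% of the unstimulated cells. The unique share there overlapped, at 33.2%, 35.5% and 41.8% after and 33.7%, 35.9% and 30.9% before stimulation. The split of shared reads was made by the authors' software, and the unique share rests on 379 to 1393 reads a library.

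**Figure D3:**
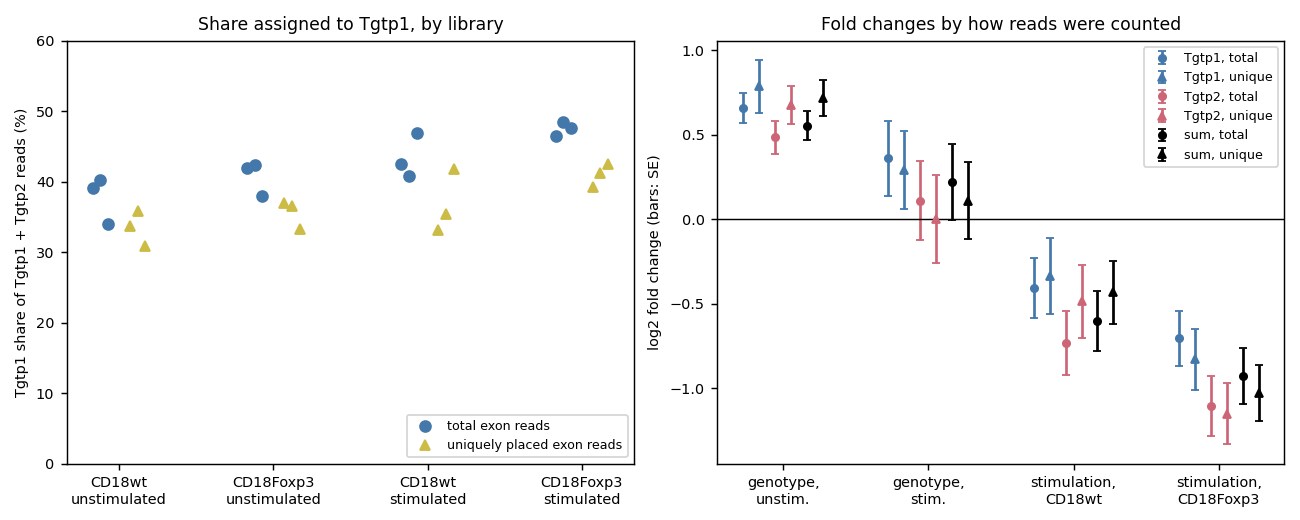
Left, share of the summed Tgtp1 and Tgtp2 exon reads that was given to Tgtp1 in each of 12 libraries (percent, axis from 0), for total reads (circles) and uniquely placed reads (triangles). Right, log2 fold change with standard error for Tgtp1, Tgtp2 and their sum in the 4 comparisons; the unstimulated genotype values run from 0.48 to 0.79 and the CD18Foxp3 stimulation values from -0.70 to -1.15, whichever reads were counted.

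Per length of transcript the members differed widely in level. In unstimulated CD18wt Treg the mean ± SD was 348.5 ± 34.6 TPM for Igtp, 182 ± 7.64 TPM for Gbp2, 160.4 ± 3.65 TPM for Tgtp2 and 89.5 ± 11.5 TPM for Tgtp1 (n = 3 each). Gbp7, Iigp1 and Gbp3 followed at 85.6, 73.6 and 72.2 TPM, then Irgm1, Irgm2 and Gbp4 at 48, 43.6 and 37.9 TPM. Igtp, Gbp2, Tgtp2 and Tgtp1 were apart from one another in all libraries, as were Gbp3 and Irgm1, while the ranges of Tgtp1, Gbp7, Iigp1 and Gbp3 overlapped from one to the next and so did those of Irgm1, Irgm2 and Gbp4. Unstimulated CD18Foxp3 Treg had the same order, from 492 ± 71.6 TPM for Igtp to 48.8 ± 0.61 TPM for Gbp4, with Tgtp1 at 144 ± 7.99 TPM, and there only the ranges of Gbp2 and Tgtp2 and those of Gbp7 and Iigp1 overlapped between neighbours. After stimulation Igtp (553 and 597.5 TPM in CD18wt and CD18Foxp3) and Gbp2 (496.5 and 420.5 TPM) still led, with overlapping ranges in CD18wt Treg, Iigp1 came next at 176 and 209 TPM, Gbp4 was again the lowest at 45.5 and 46.2 TPM, and Tgtp1 was at 89.7 ± 28.5 and 113.5 ± 26.1 TPM. Between Iigp1 and Irgm2 the ranges of all neighbours overlapped in either stimulated group.

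TPM and TMM-normalized counts do not share a zero across stimulation. The median log2 fold change of all genes tested was 0.024 in CD18wt and 0.015 in CD18Foxp3 Treg with TMM, and 0.36 in CD18wt and 0.31 in CD18Foxp3 Treg on the log2(TPM + 1) scale, where 80.7% and 75.9% of the calls were higher, against 55.7% and 54.3% with TMM. Tgtp1 in CD18wt Treg, at 89.5 and 89.7 TPM before and after stimulation, thus stood below the shift of the median gene. On the TPM scale Irgm1 and Igtp were called higher in CD18wt Treg beside Gbp2 and Iigp1, Gbp2 and Iigp1 were called higher in CD18Foxp3 Treg, beside 3589 of 11930 and 3783 of 12019 genes called higher on log2(TPM + 1), and Tgtp2 stood past the threshold as lower in CD18Foxp3 Treg with a pseudocount of 1. The uncalled values of Gbp4 in CD18wt and of Gbp3, Irgm1 and Igtp in CD18Foxp3 Treg turned positive. The log2 fold change of Tgtp1 and Tgtp2 on stimulation was negative on either scale, at -0.035 on log2(TPM + 1) for Tgtp1 in CD18wt Treg.

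Intron reads, which the choice of genes did not use, were few for most members, and their share was not tested. For Tgtp1 they were 25, 42 and 33 reads in unstimulated CD18wt, 54, 54 and 50 in unstimulated CD18Foxp3, 81, 42 and 38 in stimulated CD18wt and 106, 90 and 64 in stimulated CD18Foxp3 Treg. As a share of its exon and intron reads this was 1.32% to 3.18% before and 2.68% to 5.15% after stimulation. Iigp1 had the highest share of the members, 3.78% to 11.2% before and 15.2% to 20.3% after. Irgm1 went from 0.723% to 3.11% up to 3.52% to 9.13%. Over all genes the intron share of the libraries was 3.32% to 5.02% before and 3.65% to 5.99% after stimulation, lowest in CD18wt unstimulated replicate 3.

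Of 21 other GTPases of the families, 19 were found by symbol and 17 or 18 were tested in each comparison. In CD18wt Treg stimulation lowered 5 of 17 and raised 0, and in CD18Foxp3 Treg it lowered 10 of 18 and raised 0, with median log2 fold changes of -0.47 and -0.95; over all genes tested 14.9% and 17.6% were called lower and 18.7% and 20.9% higher. Gbp9 fell from 60.1 to 67.2 TPM over the unstimulated CD18wt libraries to 18.2 to 33.8 TPM, with -1.65 ± 0.18 (adjusted p = 7.57e-06) in CD18wt and -1.77 ± 0.13 (adjusted p = 7.05e-06) in CD18Foxp3 Treg by edgeR. Gbp8 fell by 1.39 and 2.03 on the log2 scale, and Gm4841, 9930111J21Rik1 and 9930111J21Rik2 fell by 0.89 to 1.49 in both genotypes. Gbp2b, Gbp10, Ifi47, Gvin1 and Gm12185 were called lower in CD18Foxp3 Treg only at this threshold, which was not a test of a difference. Gbp5, a guanylate-binding protein known for its part in inflammasome assembly, had 0.56 ± 0.15 and 0.51 ± 0.14, short of 1.5-fold, with 29.5 to 36.5 TPM before and 47.4 to 78.1 TPM after stimulation. Of the others with a mean of at least 1 TPM in any group, Gbp6, Gbp11, Gm4951, F830016B08Rik, Gm4070 and Irgq were called in no comparison. Gm4951, singled out after its values were seen, had 4.28 to 7.18 TPM in CD18wt against 9.45 to 20.7 TPM in CD18Foxp3 Treg before and 6.85 to 11.9 against 12.6 to 18.5 TPM after stimulation, the latter a log2 fold change of 0.89 ± 0.27 with an adjusted p of 0.72 by edgeR. Gbp6, Gbp10, Gm4070, Gvin1 and 9930111J21Rik1 had 2.08% to 30.1% of reads placed uniquely, against 14.1% for Tgtp1, so their counts are uncertain too. In unstimulated Treg 16 of the 18 had a positive genotype log2 fold change, with a median of 0.33 and none called; after stimulation 9 of 17 were positive, with a median of 0.01.

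Genes of the interferon-γ pathway were called in either direction with stimulation. In the stimulated comparison of genotypes 0 of 12 were called, as were 0% of all genes tested. With stimulation, 2 of 13 genes were called higher and 4 lower in CD18wt Treg, and 3 of 12 higher and 4 lower in CD18Foxp3 Treg, where over all genes 18.7% and 14.9%, and 20.9% and 17.6%, were. Irf8, a transcription factor, had the largest change, 3.94 ± 0.31 and 3.40 ± 0.30, from 11.45 to 14.3 TPM before to 120.3 to 317 TPM after stimulation. Socs1, which restrains JAK kinases, rose by 1.66 ± 0.32 and 1.94 ± 0.22. Ifng itself, the ligand, had 1.56 ± 0.48 (adjusted p = 0.035) in CD18wt and rose by 2.03 ± 0.45 (adjusted p = 0.0039) in CD18Foxp3 Treg. Jak1 fell by 1.21 and 1.22, Irf2 fell by 0.79 and 0.82, and the chemokine gene Cxcl10 fell by 1.17 and 1.99 on the log2 scale. Of the receptor chains, Ifngr2 fell by 0.96 in CD18wt Treg and had -0.50 ± 0.24 in CD18Foxp3 Treg, and Ifngr1 and the kinase gene Jak2 were not called. Irf1 was not called in either genotype. Between the unstimulated genotypes 12 of these genes had a median log2 fold change of 0.038, with 8 positive and 4 negative. For 2 of them the CD18Foxp3 libraries lay wholly above the CD18wt libraries, as for 8.32% of all genes tested.

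Type I interferon genes fell with stimulation in larger number: 14 of 18 in CD18wt and 14 of 18 in CD18Foxp3 Treg, with 0 rising and median log2 fold changes of -1.88 and -1.97, beside 14.9% and 17.6% of all genes called lower. In CD18wt Treg the largest falls were those of the antiviral genes Rsad2 (-3.70 ± 0.42), Ifit3 (-3.68 ± 0.34) and Isg15 (-3.56 ± 0.32). In CD18Foxp3 Treg Rsad2 had -4.37 ± 0.35 and Ifit3 -3.48 ± 0.39, and Ifi44, also called, went from 165 reads over the unstimulated libraries to 3 reads over the stimulated ones. The receptor genes Ifnar1 and Ifnar2 fell by 0.65 to 1.08, Irf9 by 1.29 and 1.22 and Irf7 by 2.31 and 2.68. The kinase gene Tyk2 was called lower in CD18wt Treg (-0.64 ± 0.13) and not in CD18Foxp3 Treg (-0.60 ± 0.17, adjusted p = 0.014), and Stat2 was not called. Between the stimulated genotypes 0 of 15 were called, as were 0% of all genes tested. Between the unstimulated genotypes 14 of 18 were positive with a median of 0.11 and none called, and CD18Foxp3 libraries lay wholly above for 3 (8.32% of all genes tested), Irf7 (0.46 ± 0.10), Rtp4 (0.38 ± 0.11) and Bst2 (0.34 ± 0.10), named after their values were seen. Of 9 ATG8 conjugation genes, Gabarapl1 rose by 1.21 ± 0.15 and 1.09 ± 0.19, whereas Map1lc3b fell by 1.00 and 1.17 and Gabarap by 0.94 and 0.88. In each genotype 1 of the 9 was called higher, 3 were called lower and 5 were not called. Over all genes tested, 18.7% and 20.9% were called higher and 14.9% and 17.6% lower. None of the 9 was called between stimulated genotypes, where 0% of all genes were called in either direction.

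**Figure D4:**
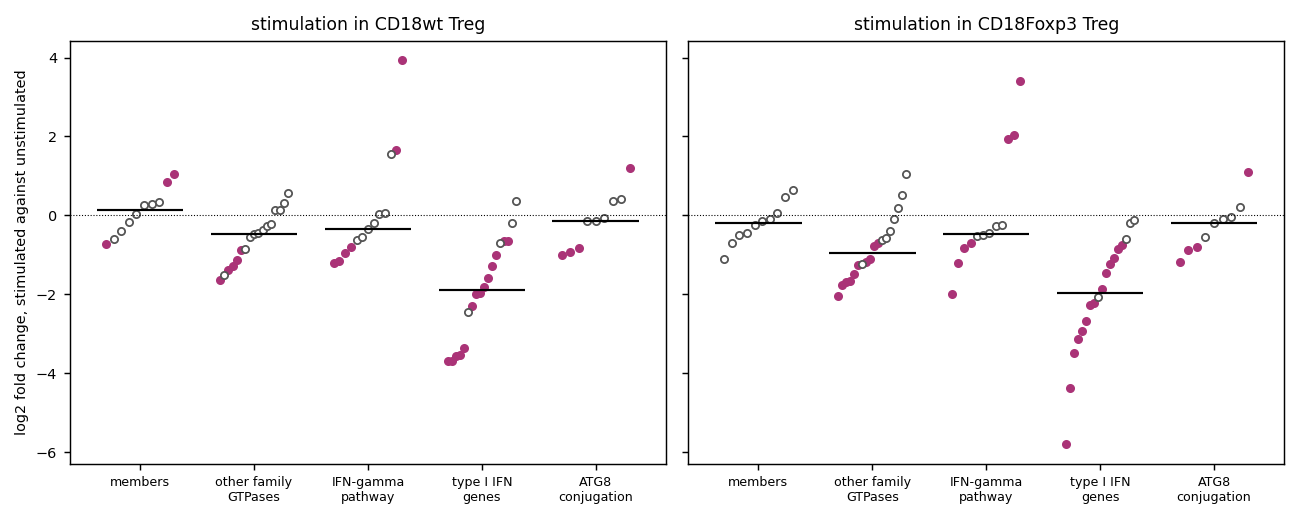
Log2 fold change on stimulation (vertical axis) of each tested gene of 5 lists in CD18wt (left) and CD18Foxp3 Treg (right); filled points were called (not shown for Tgtp1 and Tgtp2 in CD18Foxp3 Treg, which have no test), lines are list medians. The members lie between -1.10 and 1.05 around medians of 0.14 and -0.19, and the type I interferon genes around medians of -1.88 and -1.97. A filled point of Tgtp2 in CD18wt Treg marks a value past the threshold and is not a test.

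Transcripts of other cells were low but moved with stimulation. The summed level of 4 B cell markers was 26.8 to 30.3 and 22.6 to 30.4 TPM in unstimulated CD18wt and CD18Foxp3 Treg and 10.3 to 19.8 and 8.75 to 11.9 TPM after stimulation. That of 4 NK and CD8 T cell markers was 25.4 to 35.7, 25.3 to 33, 12.6 to 18.2 and 16.8 to 25.8 TPM in the same order, with Ncr1 at 0 reads throughout and Klrb1c at 0 in stimulated CD18wt Treg. The 5 myeloid markers summed to 4.66 to 15.8, 1.58 to 7.2, 0.163 to 1.83 and 0.913 to 1.73 TPM, and Adgre1 had no reads in the unstimulated groups nor Cd14 in unstimulated CD18wt Treg. The 4 dendritic cell markers summed to 0.629 to 1.18, 0.854 to 1.24, 2.75 to 4.03 and 2.17 to 4.95 TPM, with Flt3 at 0 in unstimulated CD18wt and Itgax at 0 in both CD18Foxp3 groups, and the 3 erythroid markers to 1.21 to 4.15, 1.68 to 30.4, 0 to 2.24 and 0 to 0.234 TPM, with Hbb-bs at 0 reads in stimulated CD18wt and Hba-a1 in stimulated CD18Foxp3 Treg. The ranges of these 5 sums overlapped between the unstimulated genotypes, but 4 single markers did not overlap in CD18wt and CD18Foxp3 Treg: Itgam (0.0942 to 0.354 against 0.391 to 0.96 TPM), Zbtb46 (0.0289 to 0.76 against 0.791 to 1.10 TPM), Xcr1 (0.39 to 0.498 against 0.0629 to 0.273 TPM) and Klrb1c (3.73 to 5.32 against 1.58 to 2.71 TPM). In CPM, CD18Foxp3 libraries lay wholly above the CD18wt libraries for 8.32% of all genes tested before stimulation, as they did for Itgam and Zbtb46. The share wholly below, where Xcr1 and Klrb1c stood, is not given here. The part of other cells in the changes of the GTPases was not tested.

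Across the 12 libraries the log2 CPM of Tgtp1 had a Pearson r of 0.90 with Tgtp2, with which it shares reads that software divided between the genes. It followed Gbp7 (0.90), Gbp4 (0.78) and Gbp3 (0.72) more closely than Igtp, Irgm1 and Irgm2 (0.44, 0.45 and 0.39), and had r = -0.14 with Iigp1 and -0.20 with Gbp2. Within the 6 unstimulated libraries r lay between 0.73 (Irgm2) and 0.96 (Gbp3) for the 9 members, and within the 6 stimulated ones between 0.48 (Gbp2) and 0.94 (Irgm2). Outside the families, among 10712 genes with at least 90% of reads placed uniquely, the genes most like Tgtp1 over 12 libraries included Lyn (0.91), Plac8 (0.89), Serpina3g (0.89) and Ttn (0.88). Over the 6 unstimulated libraries they were 2700062C07Rik, Dennd5a, Irf7, Hipk2 and Trpm6, with r of 0.98 to 0.99, and over the 6 stimulated ones Slfn5, Gm49172, Mgat4a, Fmo5 and Nhlrc3, with 0.96 to 0.98. These values describe libraries that share groups, depth and normalization, and with 6 libraries many genes reach high values. The 6 unstimulated libraries are those on which Tgtp1 was chosen, and there its CPM did not overlap between the genotypes. The r values within them, and over the 12 libraries that include them, contain that difference and support nothing further.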

How the data were processed

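RNA-Seq of 12 Treg libraries was analysed from the per-library gene tables. Libraries were made from the poly(A) fraction of 10 ng total RNA (integrity over 8) with 15 PCR cycles. The authors mapped 59-base single reads to GRCm38 in CLC Genomics Workbench 20.0 and deposited, for each gene, unnormalized counts of total, uniquely placed and intron reads, and TPM written with decimal commas. The deposited TPM equalled total exon count over exon length, rescaled per library, to within a relative 6.2e-05. The depth of 10665174 to 19005482 exon reads gave each member 706 to 7829 reads a library.

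Counts were tested with edgeR 4.0.16 (R 4.3.3): filterByExpr with a minimum count of 10, TMM, robust quasi-likelihood F-test on the 6 libraries of each comparison, Benjamini-Hochberg adjustment over all genes tested, and a call at 1.5-fold or more with an adjusted p no higher than 0.01. The SE is the log2 fold change divided by the square root of F. CPM used TMM factors of all 12 libraries. The fits were tested on simulated data. The threshold, the gene lists and the members were chosen with earlier results of these data known. All 10 members were named, other family genes from a mean of 1 TPM, and of the 3 pathway lists the roles and the 3 called genes with the largest change; a few genes the rule names are not reported here.

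Alternatives were upper-quartile scaling, DESeq2 1.42.0, the likelihood ratio test of edgeR, unfiltered genes, 10 counts in every library, unique reads, Tgtp1 and Tgtp2 summed, limma 3.58.1 on log2(TPM + pseudocount) with pseudocounts of 1 and 0.1, a single fit of the 12 libraries, a looser adjusted p (0.05), the replicate number as a block and each library left out. Unique reads of the summed pair were added after seeing the data.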

Additional observations from a re-analysis of the deposited data

How the results depend on the processing

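The log2 fold change of Tgtp1 between unstimulated genotypes was 0.79 with uniquely placed reads and 0.66 to 0.69 in the other settings that kept all libraries and Tgtp1 as its own gene; all 10 members stayed positive in every setting tried, but Tgtp1 was not past the threshold with unique reads, either TPM scale, all 12 libraries in 1 fit, or without 1 of 5 libraries. In stimulated Treg no setting called a member, but Gbp3 ranged from -0.20 to 0.24, Gbp2 from -0.47 to 0.062, Gbp4 from -0.23 to 0.26, Irgm2 from -0.011 to 0.31, Irgm1 from -0.079 to 0.13, Tgtp2 from -0.048 to 0.40, Tgtp1 from 0.21 to 0.62, Gbp7 from 0.23 to 0.55 and Iigp1 from 0.14 to 0.47 when 1 library was left out.

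In CD18wt Treg 2 members were past the threshold as lower with upper-quartile scaling, DESeq2, the likelihood ratio test, unfiltered genes, all 12 libraries or an adjusted p of 0.05. These were Gbp7 and Tgtp2, the latter given without a test. The number was 0 with unique reads, the summed pair from total or unique reads, or either TPM scale, which called 4 higher. Leaving out 1 library gave 1 to 2 higher and 0 to 3 lower. Over all genes, the settings with 2 members lower called 1936 to 2180 genes lower, of 11926 to 20285 tested, and the main fit 1779 of 11930. Unique reads called 1817 of 11611 lower. On log2(TPM + 1) 3589 of 11930 were called higher and 858 lower. Calls over all genes for the summed pair, for log2(TPM + 0.1) and with 1 library left out are not given here. In CD18Foxp3 Treg DESeq2, the likelihood ratio test, no filter, all 12 libraries and an adjusted p of 0.05 called 1 higher (Iigp1), and either TPM scale 2; Tgtp1 and Tgtp2, which have no test there, made up the values past the threshold as lower, 1 for the pair summed from total or unique reads, 1 with log2(TPM + 1) and 0 with log2(TPM + 0.1). Leaving out 1 library gave 0 to 2 higher and 1 to 2 lower. Over all genes, the settings that called Iigp1 alone called 2531 to 2915 genes higher, of 12017 to 20846 tested, and the main fit 2516 of 12019. On log2(TPM + 1) 3783 of 12019 were called higher and 1201 lower. Why the counts of members moved was not tested, except that the summed pair counts as 1 gene and a fit without a library has fewer samples.

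Uncalled values changed sign as follows. In CD18wt Treg Gbp3 was -0.052 with upper quartiles, Gbp4 0.16 (log2(TPM + 1)) and 0.17 (log2(TPM + 0.1)), and leaving out 1 library gave -0.25 to 0.16 for Gbp3 and -0.38 to 0.10 for Gbp4. In CD18Foxp3 Treg Irgm2 was -0.021 with upper quartiles, and on the 2 TPM scales Gbp3 was 0.12 and 0.12, Irgm1 0.21 and 0.22 and Igtp 0.28 and 0.28; leaving out 1 library gave -0.19 to 0.019 for Igtp and -0.064 to 0.17 for Irgm2.

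The replicate numbers were not taken as pairs, although the names of the deposited tables repeat an identifier between the unstimulated and stimulated libraries of a number: deviations of same-numbered libraries correlated at -0.11 to 0.08 except for stimulation in CD18Foxp3 Treg (0.13, 0.07 and 0.13), where all 6 libraries correlated best with their own number. With the replicate block Tgtp2 fell by 0.78 in CD18wt Treg, Tgtp1 by 0.73 in CD18Foxp3 Treg, Gbp3 was at -0.0065 in CD18wt Treg, no call of a member changed, and calls over all genes went from 2234 higher and 1779 lower to 2010 and 1578 in CD18wt and from 2516 and 2120 to 2608 and 2291 in CD18Foxp3 Treg.

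Over all genes, calls between unstimulated genotypes went from 6 higher and 10 lower to 34 and 52 with DESeq2, 35 and 51 with the likelihood ratio test, 60 and 74 with no filter, 16 and 25 with the block and 0 with all 12 libraries. Depth limits the precision of the uniquely placed reads, of which Tgtp1 had 117 to 516 a library.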
